A study of Homo sapiens with 48 samples.

Results

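The epidermal growth factor receptor (EGFR) family was followed through the peak lists of the NF-κB subunits RELA and RELB, the AP-1 factor FOSL1 and the histone mark H3K27ac in L3.6pl, an established human pancreatic ductal adenocarcinoma cell line. The members were 9 genes: the receptors EGFR, ERBB2 and ERBB3, and the ligands AREG, EREG, HBEGF, TGFA, BTC and EPGN. They were chosen by name, out of 20007 protein-coding genes of GENCODE 44, with earlier results of these data known. Each was examined over its gene body plus 50 kb on either side. The 48 samples formed 16 groups of 3 replicates, and 1 peak list was deposited for each group. RELA, RELB and H3K27ac were each profiled in cells given vehicle (PBS), TNFα for 30 min or 6 h, or TWEAK for 30 min or 6 h, both cytokines at 10 ng/ml. FOSL1 was profiled in vehicle cells alone. No group carried a genetic change according to the labels, and all groups came from the same cell line. The labels do not give how long vehicle was applied.

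Each list was called on merged replicates, so no value below has a replicate error, no test of a difference between treatments was possible, and the read depth behind a list is unknown. The lists differed in length, from 2414 regions (RELB, 30 min TWEAK) to 11266 (RELA, 30 min TNFα) among the NF-κB lists, with 58864 regions for FOSL1 and 53895 to 61194 for H3K27ac. A site missing from a list was therefore only not called there. The peak names of the RELA list at 30 min TNFα carry the label of replicate 1, and whether all 3 replicates were merged is not settled. That list supplied most sites below, and the RELA list at 6 h TNFα is given beside it. The epithelial label was checked by H3K27ac at start sites: a peak lay within 1 kb of the start in all 5 lists for 5 of 5 epithelial genes (KRT8, KRT18, KRT19, EPCAM and CDH1), for 0 of 3 leukocyte genes and 0 of 2 endothelial genes, and for 2 of 3 fibroblast genes (COL1A1 and COL3A1). The distance of 1 kb was chosen after the values were seen. With a peak required over the start base itself, EPCAM alone of the 5 epithelial genes was covered in all 5 lists, and the other 4 in none.

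EGFR, ERBB2 and ERBB3 are receptor tyrosine kinases that pair with each other at the cell surface and signal through the RAS and PI3K pathways. Their ligands are made as membrane-bound precursors and are released by proteases such as ADAM17. ERBB2 binds no known ligand directly, and ERBB3 is activated by neuregulins rather than by the 6 ligands examined here. TNFα is the classical activator of RELA, which acts in the canonical NF-κB pathway, whereas TWEAK also drives processing of the RELB partner NFKB2 in the noncanonical pathway. FOSL1 (FRA1) is a subunit of AP-1, a dimer that lies downstream of receptor signaling, and H3K27ac marks active promoters and enhancers.

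The strongest RELA sites at HBEGF, TGFA, EGFR and EREG are shown first, since the results turn on them. Each is the plus strand of hg38, at most 100 bp on either side of the RELA summit of 30 min TNFα. Capitals mark exact matches to the NF-κB consensus motif GGGRNNYYCC or to the AP-1 motif TGANTCA, searched on both strands. R stands for A or G, Y for C or T and N for any base. The EREG stretch was cut to 183 bp where the annotated UTR begins.
HBEGF −1.9 kb, chr5:140348361-140348561: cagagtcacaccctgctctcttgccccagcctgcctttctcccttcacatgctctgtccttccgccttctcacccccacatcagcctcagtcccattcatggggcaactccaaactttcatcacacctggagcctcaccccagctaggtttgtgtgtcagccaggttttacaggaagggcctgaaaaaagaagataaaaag
TGFA +29.3 kb, chr2:70524408-70524608: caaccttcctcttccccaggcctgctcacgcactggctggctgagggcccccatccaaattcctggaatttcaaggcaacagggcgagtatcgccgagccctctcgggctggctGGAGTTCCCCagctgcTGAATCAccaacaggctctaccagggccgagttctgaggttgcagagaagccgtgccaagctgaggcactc
EGFR +46.3 kb, chr7:55065173-55065373: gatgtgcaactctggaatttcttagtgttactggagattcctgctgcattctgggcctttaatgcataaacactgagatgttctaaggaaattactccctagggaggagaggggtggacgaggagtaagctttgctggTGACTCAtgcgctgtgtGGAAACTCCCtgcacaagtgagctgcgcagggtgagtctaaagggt
EREG −0.1 kb, chr4:74364962-74365144: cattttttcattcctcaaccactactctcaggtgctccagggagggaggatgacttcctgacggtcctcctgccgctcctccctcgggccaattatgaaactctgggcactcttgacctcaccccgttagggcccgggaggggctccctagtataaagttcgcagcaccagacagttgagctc

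The TGFA and EGFR +46.3 kb sites, both in a first intron, each held 1 NF-κB match and 1 AP-1 match. At TGFA these were GGGGAACTCC on the minus strand and TGAATCA, with centers 19 and 33 bp from the summit, and at EGFR they were GGGAGTTTCC on the minus strand and TGACTCA, 60 and 41 bp from it. The NF-κB and AP-1 matches did not overlap. The HBEGF and EREG stretches held no exact match to either motif. Near matches were not counted, such as GGGCAACTCC in the HBEGF stretch, which has C in place of R. An NF-κB match was present within 100 bp of the summit of 37.5% of all RELA regions at 30 min TNFα, and an AP-1 match in 14.4%. Outside tandem repeats, defined below, these shares were 49.6% and 19.0%.

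Across the 10 NF-κB lists, 20 separate sites were called in the windows of the 9 genes, which cover 1.28 Mb once merged. RELA was called at 17 of them after 30 min TNFα and at 9 after 6 h TNFα, against 1 in vehicle, 3 after 30 min TWEAK and 1 after 6 h TWEAK. RELB was called at 3 sites after 6 h TWEAK, at 1 in vehicle, at 1 after 6 h TNFα, and at 0 after 30 min of either cytokine. RELA at 30 min TNFα and no other NF-κB list called 10 of the 20 sites, and 7 sites were in both TNFα lists of RELA. The 10 were 58.8% of the 17 RELA regions of 30 min TNFα, and of all such regions 49.2% were in no other NF-κB list, or 62.7% of those outside tandem repeats. Only 2 sites, EGFR +46.3 kb and TGFA +29.3 kb, were called for both RELA and RELB.

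**Figure D1:**
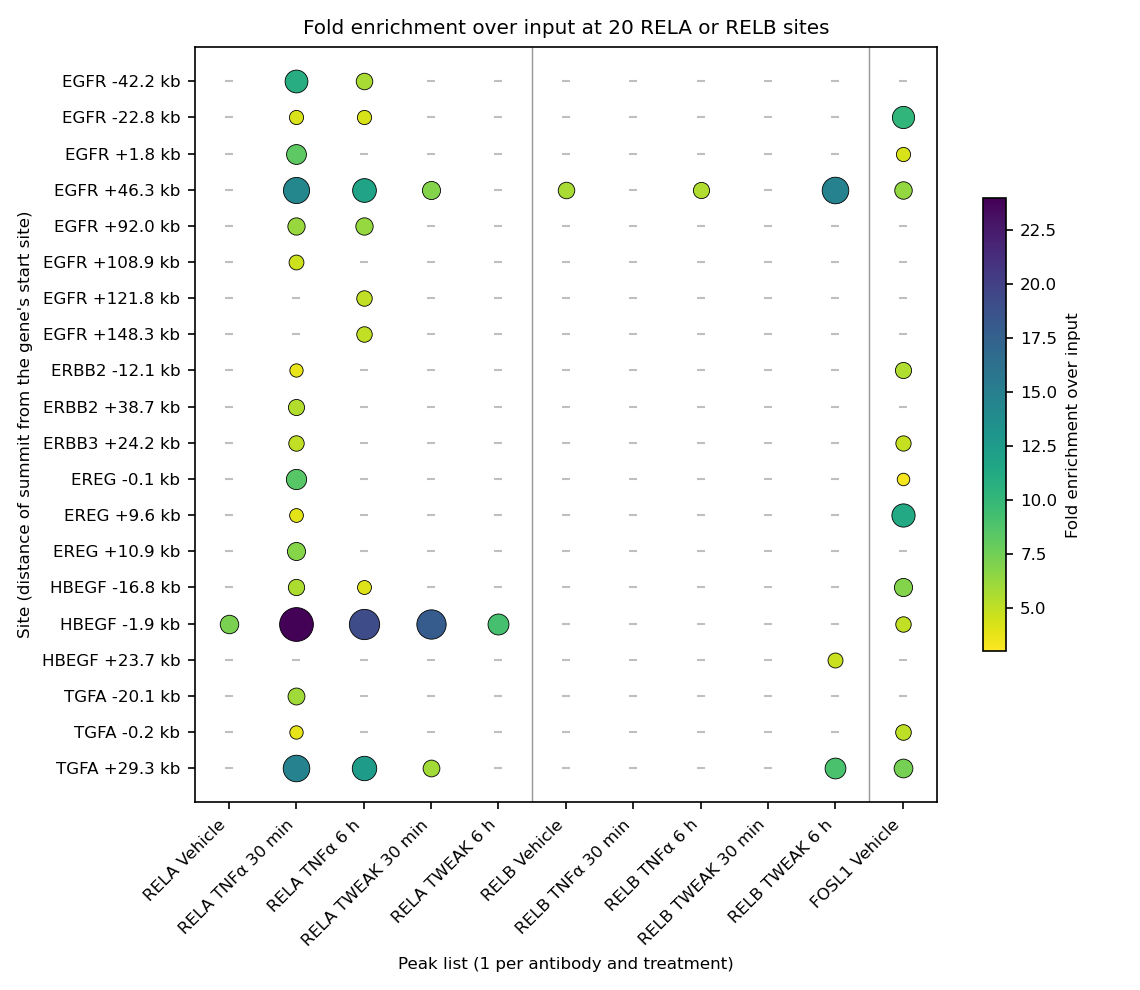
Fold enrichment over input at the 20 RELA or RELB sites (rows, named by gene and by the distance of the summit from its start site) in 10 NF-κB lists and the FOSL1 list (columns). Circle size and color give the fold enrichment and a dash means not called; the HBEGF −1.9 kb row is filled in all 5 RELA columns and in no RELB column.

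At 30 min TNFα, RELA was called in the windows of 7 of the 9 genes (EGFR, ERBB2, ERBB3, EREG, HBEGF, TGFA and EPGN), whereas 48.1% of all protein-coding genes had such a region in the same window. EPGN counted only through the EREG promoter site, because the EPGN and EREG windows overlap by 51645 bp. Counting only regions in these windows whose nearest protein-coding start was a member's, 4 genes had one (EGFR, EREG, HBEGF and TGFA), against 23.9% of all protein-coding genes. At 6 h TNFα 3 genes had a RELA region (EGFR, HBEGF and TGFA; 26.8% of all genes). The same 3 genes had one after 30 min TWEAK (7.58% of all genes), and the same 3 had a RELB region after 6 h TWEAK (13.6% of all genes). In vehicle and at 6 h TWEAK only HBEGF had a RELA region (5.05% and 5.11% of all genes). RELB was called only at EGFR in vehicle (3.06% of all genes) and at 6 h TNFα (3.87%), and at 0 of the 9 genes after 30 min TNFα (1.58%) or 30 min TWEAK (1.39%). Within 5 kb of the start, EGFR, EREG, HBEGF and TGFA had a RELA summit at 30 min TNFα, against 12.6% of all genes, and 0 of the 9 had a RELB summit at 6 h TWEAK (1.99%). FOSL1 had a summit within 5 kb of the start at 6 genes (EGFR, ERBB3, EREG, HBEGF, TGFA and BTC), against 54.8% of all genes. Longer genes have longer windows, and EGFR and TGFA had the longest here, with 293 and 207 kb against a median of 127 kb over all genes.

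HBEGF encodes heparin-binding EGF-like growth factor, a ligand of EGFR and ERBB4 that also serves as the diphtheria toxin receptor. Its −1.9 kb site (chr5:140348160-140348635, intergenic, 1858 bp upstream of the start) was called for RELA in every list. Its fold enrichment was 7.19 in vehicle, 23.9 and 19.2 at 30 min and 6 h TNFα, and 18.0 and 9.20 at 30 min and 6 h TWEAK. Vehicle was the lowest of the 5 values and 30 min TNFα the highest, where the site ranked 22nd of 11266 regions by fold enrichment. It ranked 66th of 7294 at 6 h TNFα, 40th of 2791 at 30 min TWEAK, 443rd of 3677 at 6 h TWEAK and 796th of 3004 in vehicle. These ranks are not comparable between lists and were not taken outside tandem repeats. Of the 2169 RELA regions of 30 min TNFα that were also in vehicle, 358 were outside such repeats. The 5 summits lay within 20 bp of each other. No RELB list called this site. FOSL1 was called there at 5.00-fold, with its summit 56 bp from that of RELA. The RELA summit sat in a gap between a pair of H3K27ac regions in all 5 lists: in vehicle one ended 110 bp upstream of the summit and the other began 326 bp downstream, and at 30 min TNFα these distances were 111 and 167 bp. The fold enrichment of the upstream region was 2.06 in vehicle and 2.30 at 30 min TNFα, and that of the downstream region 1.64 and 1.95.

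A second RELA site at HBEGF lay 16.8 kb upstream (chr5:140363303-140363567), in intron 7 of the neighboring bicarbonate transporter gene SLC4A9, whose start site was nearer at 3.2 kb. RELA was called there at 5.59-fold at 30 min TNFα and at 4.07-fold at 6 h, and FOSL1 at 6.93-fold with its summit 3 bp away. The RELB region of 6 h TWEAK in the HBEGF window (chr5:140322881-140323000, 4.68-fold) was elsewhere, 23.7 kb downstream of the start, and was called in no other NF-κB list. Its nearest protein-coding start was that of PFDN1, a prefoldin subunit gene, 19.8 kb away.

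TGFA encodes transforming growth factor α, a high-affinity EGFR ligand. Its +29.3 kb site in intron 1 (chr2:70524246-70524698) was not called in vehicle for either subunit. RELA reached 14.8-fold at 30 min TNFα, 12.5-fold at 6 h TNFα and 5.89-fold at 30 min TWEAK, and RELB reached 9.07-fold at 6 h TWEAK. FOSL1 was called at 7.38-fold, with its summit 5 bp from that of RELA. Both subunits and FOSL1 were thus called over the stretch printed above, with the RELA, RELB and FOSL1 summits within 56 bp. These calls came from different treatments, and FOSL1 was profiled in vehicle alone, where neither subunit was called. The site lay under an H3K27ac region of 2801 bp in vehicle (2.58-fold) and of 2866 bp at 30 min TNFα (2.61-fold). At 6 h TNFα, H3K27ac was called as separate regions on either side of the summit, of 1662 and 989 bp.

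The other TGFA sites were called for RELA at 30 min TNFα and in no other NF-κB list. One was at the promoter, 179 bp upstream of the canonical start (chr2:70553903-70554059), at 3.75-fold, with FOSL1 at 5.12-fold and H3K27ac beside it in all 5 lists. The other lay 20.1 kb upstream (chr2:70573874-70574024) at 5.99-fold, with neither FOSL1 nor H3K27ac in any list.

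**Figure D2:**
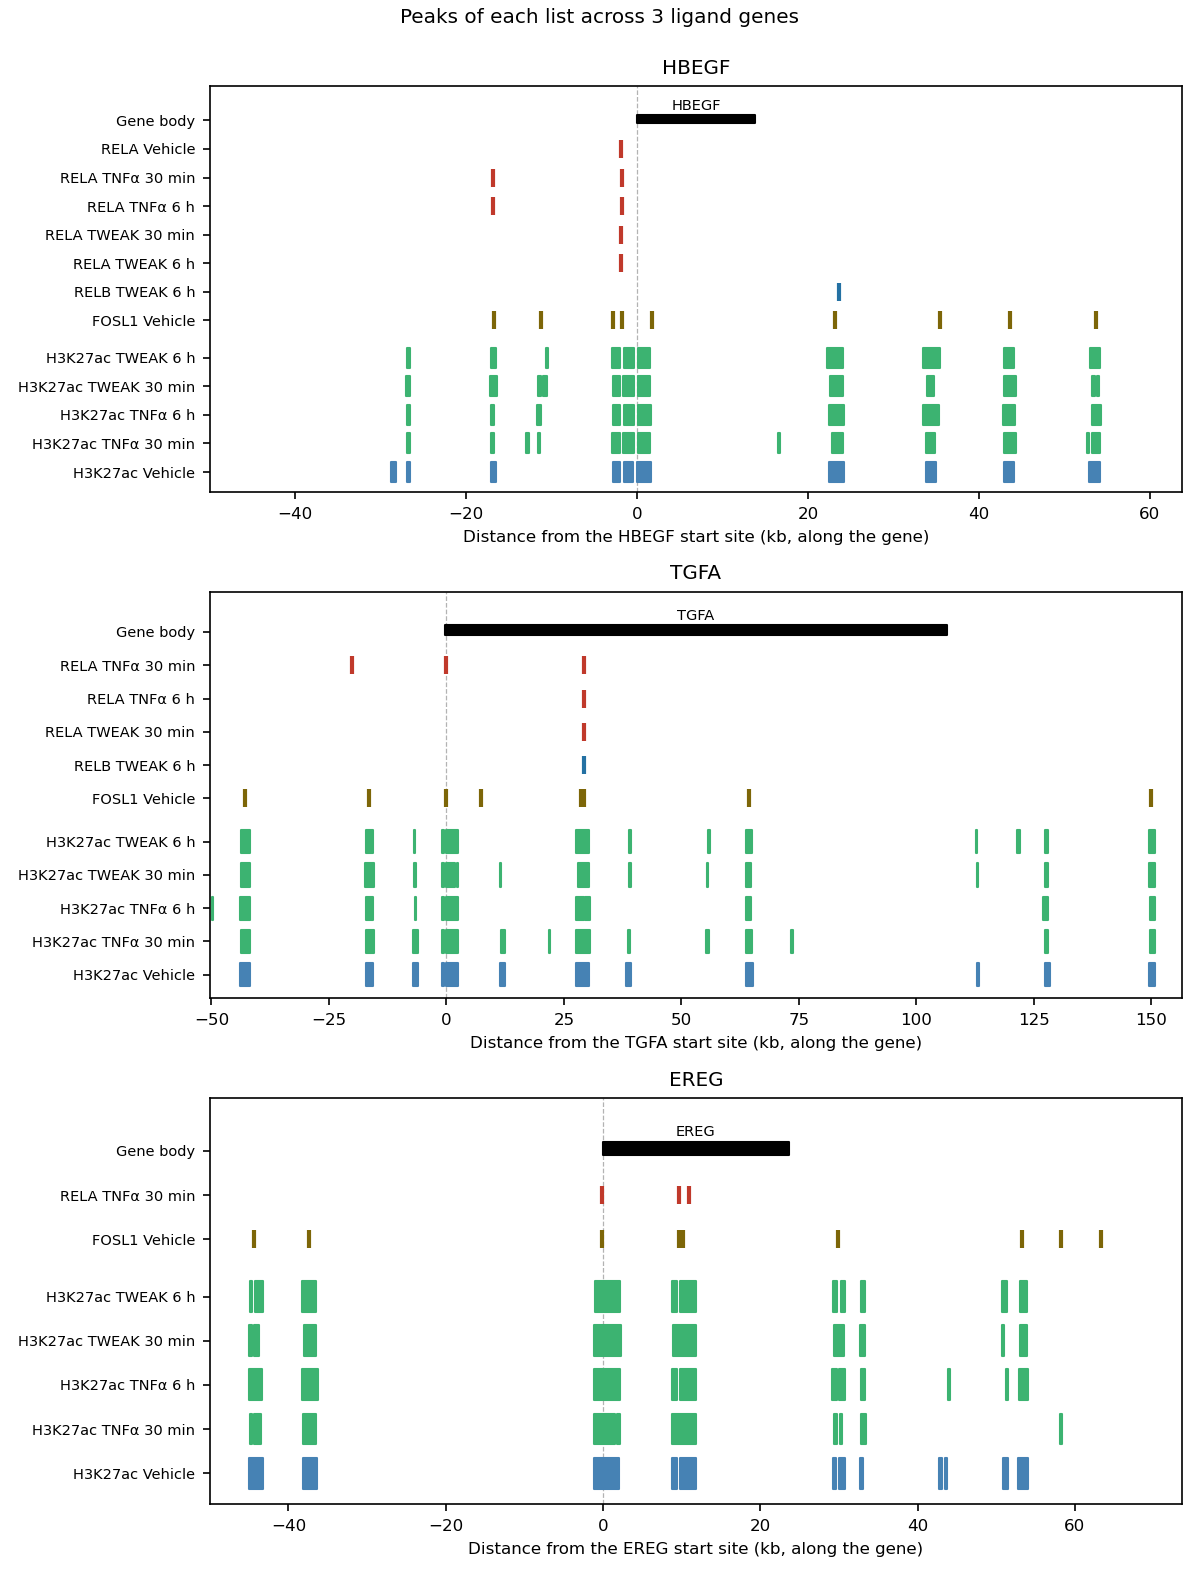
Peaks of each list across the windows of HBEGF, TGFA and EREG, by distance from the start site in kb along the gene. Ticks mark RELA (red), RELB (blue) and FOSL1 (brown) regions, bars mark H3K27ac regions in vehicle (blue) and after cytokine (green), and black bars the gene bodies; lists with no region in a window are left out. RELA and RELB marks coincide at TGFA +29.3 kb and lie apart at HBEGF, whose RELB region is 23.7 kb downstream of the start.

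The remaining ligands lie in a cluster on chromosome 4. EREG encodes epiregulin, a ligand of EGFR and ERBB4. RELA was called at 3 EREG sites at 30 min TNFα, and none of them was in another NF-κB list. The promoter site (chr4:74364947-74365171), 83 bp upstream of the start, had the highest fold enrichment of the 3, at 8.57. A pair of sites in intron 1, at +9.6 kb (chr4:74374637-74374845) and +10.9 kb (chr4:74375968-74376119), had 3.98-fold and 6.85-fold. FOSL1 was called at the promoter at 3.29-fold and at +9.6 kb at 11.3-fold, which is higher than RELA at that site, and not at +10.9 kb. All 3 sites had H3K27ac within 500 bp of the summit in all 5 lists.

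AREG (amphiregulin) and BTC (betacellulin) had no RELA or RELB region in any of the 10 lists, within windows of 110 and 150 kb. This depended on the window. With 100 kb either side, all 9 genes had a RELA region at 30 min TNFα, and the share of all genes was not computed at that distance. Over regions at any distance, 6 of the 9 members, AREG and BTC among them, were the nearest protein-coding start to one, against 27.5% of all genes. EPGN (epigen) had the EREG promoter site and no other, and the starts of EPGN and EREG are 56675 bp apart.

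EGFR had 8 of the 20 sites, 6 of them called for RELA at 30 min TNFα and 6 at 6 h. The leading site was at +46.3 kb in intron 1 (chr7:55065054-55065464), and it was the only one of the 20 with RELB in more than 1 list. RELA was called there at 14.3-fold at 30 min TNFα, 11.8-fold at 6 h TNFα and 6.90-fold at 30 min TWEAK. RELB was called at 5.74-fold in vehicle, 5.51-fold at 6 h TNFα and 14.8-fold at 6 h TWEAK, and the last of these ranked 148th of 4052 regions. RELA was not called in vehicle or at 6 h TWEAK, and RELB was not called at 30 min of either cytokine. RELB in vehicle and RELB at 6 h TNFα had closely similar fold enrichment, and RELB at 6 h TWEAK stood above both. FOSL1 was called at 6.41-fold, with its summit 37 bp from that of RELA, and H3K27ac covered the summit in all 5 lists at 3.00 to 3.37-fold.

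The −42.2 kb site, which was intergenic, had the second highest RELA fold enrichment at EGFR, 10.9 at 30 min TNFα and 5.75 at 6 h. It had no RELB and no FOSL1 region. H3K27ac was not called within 500 bp of its summit in vehicle, at 30 min TWEAK or at 6 h TWEAK. At 30 min TNFα a pair of H3K27ac regions flanked it, one of 396 bp (2.51-fold) that ended 116 bp upstream of the summit and one of 519 bp (2.69-fold) that began 191 bp downstream. At 6 h TNFα a region of 546 bp (2.37-fold) covered the summit. Farther out, a region of 213 bp at 30 min TNFα (2.80-fold) and one of 381 bp at 30 min TWEAK (2.79-fold) began 1482 and 1324 bp downstream of the summit. It was the only one of the 20 sites with H3K27ac within 500 bp in both TNFα lists and not in vehicle. This was 1 of the 17 RELA regions of 30 min TNFα (5.88%), against 6.54% of all such regions and 6.19% of those outside tandem repeats. Part of its sequence is repeated elsewhere: 55.6% of the stretches of 24 bp within 100 bp of its summit occur once in hg38, and the most frequent occurs 2435 times. How reads with several matches were placed is not given in the sources used here, and its part in these calls was not tested. In the same count 16 of the other 19 sites were single-copy throughout.

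The +1.8 kb site (chr7:55020696-55020955), in intron 1 near the EGFR start, was called for RELA at 8.23-fold at 30 min TNFα alone, with FOSL1 at 4.26-fold and H3K27ac in all 5 lists. A pair of sites had nearly equal RELA fold enrichment at both TNFα times: −22.8 kb (chr7:54996070-54996238) at 4.23 and 4.26, and +92.0 kb (chr7:55110888-55111057) at 6.24 and 6.29. FOSL1 at −22.8 kb was 10.3-fold, above RELA, and +92.0 kb had none. The last 3 EGFR sites were called in 1 list each: +108.9 kb at 30 min TNFα (chr7:55127859-55127987, 4.62-fold), and +121.8 kb (chr7:55140801-55140909) and +148.3 kb (chr7:55167320-55167514) at 6 h TNFα, both 5.03-fold. The +148.3 kb site in intron 15 was the only one of the 20 in a tandem repeat, where 0.684 of the bases in the 1000 bp around the summit matched those at a fixed shift (0.4 or more counted as a repeat). Of all RELA regions at 30 min TNFα, 26.3% were in such repeats.

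**Figure D3:**
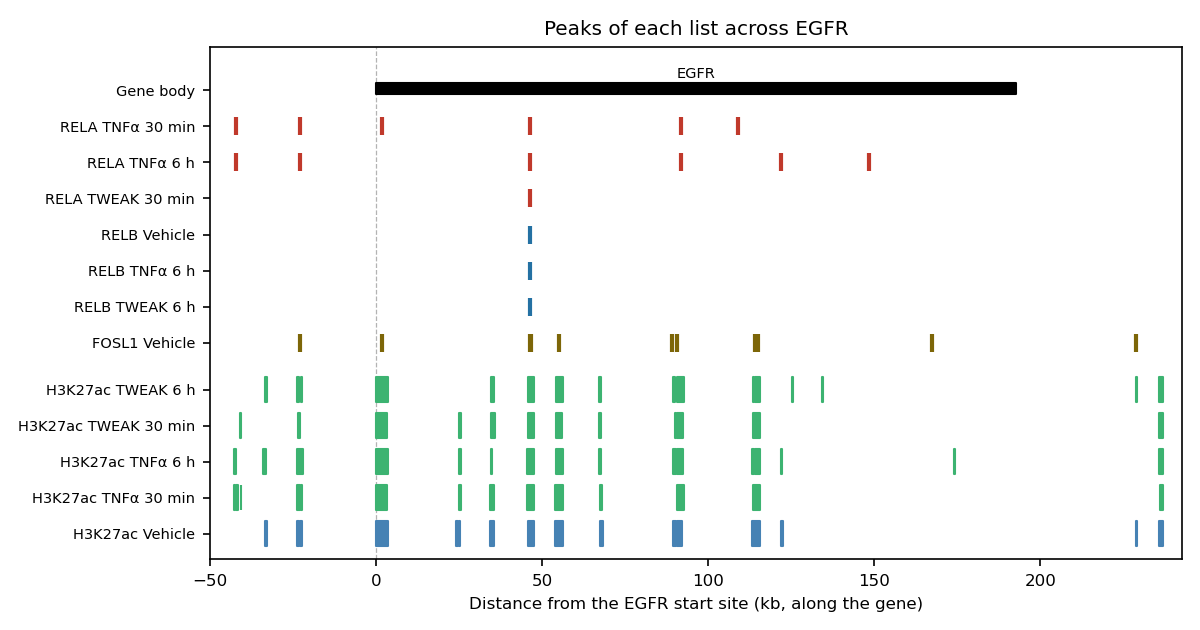
Peaks of each list across the EGFR window, by distance from the start site in kb. Ticks mark RELA (red), RELB (blue) and FOSL1 (brown) regions and bars H3K27ac regions in vehicle (blue) and after cytokine (green). RELA and RELB coincide only at +46.3 kb. The H3K27ac bars near −42 kb appear at both TNFα times and not in vehicle or after TWEAK. The nearest bar of 30 min TWEAK lies apart, at −40.9 to −40.5 kb.

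At the other receptors the RELA sites lay within 1 kb of the starts of neighboring genes. ERBB2, the receptor amplified in a subset of carcinomas, had 2 sites, both at 30 min TNFα alone. The −12.1 kb site (chr17:39687886-39688138, 3.70-fold) was 120 bp into PGAP3, a gene of glycolipid anchor remodeling, in the coding part of its exon 1. It was also 23 bp inside the annotated 5′ end of ERBB2, upstream of the canonical ERBB2 start. The +38.7 kb site (chr17:39738687-39738842, 5.44-fold) was in intron 1 of GRB7, an adaptor gene, 827 bp from its start. ERBB3 had 1 site (chr12:56104240-56104485, 4.99-fold at 30 min TNFα), 24.2 kb downstream of its own start and 145 bp upstream of the start of PA2G4, which encodes an ERBB3-binding protein. Of the 20 sites, 15 had a member as the nearest protein-coding start, and the canonical start of neither ERBB2 nor ERBB3 was nearest to any. All 3 sites had H3K27ac in all 5 lists. Counted per window length, the receptors had 1.60 RELA regions per 100 kb at 30 min TNFα (9 in 562 kb) and the ligands 1.12 (8 in 717 kb), a ratio of 0.697 with an exact 95% interval of 0.234 to 2.03 that covers counting error only.

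Where a site was called at both TNFα times, the fold enrichment was lower at 6 h in 5 of 7 sites, with a median ratio of 0.825 (0.528 to 1.01). Over all 5093 RELA regions called at both times, 60.9% were lower at 6 h with a median ratio of 0.931, and over the 2932 outside tandem repeats 75.9% were lower with a median of 0.791. The 3 sites also called at 30 min TWEAK were all lower than at 30 min TNFα, at 0.483 (EGFR +46.3 kb), 0.753 (HBEGF −1.9 kb) and 0.398 (TGFA +29.3 kb) of its value. Over all 2269 RELA regions called in both lists 51.4% were lower with a median ratio of 0.990, and over the 644 outside tandem repeats 93.3% were lower with a median of 0.528. Fold enrichment from separate lists also moves with the depth of each list and its input, which is unknown here.

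Over the 17 RELA regions of 30 min TNFα, 16 did not overlap a vehicle RELA region, and 1 (5.88%) did, against 19.3% of all 11266 regions and 4.31% of the 8308 outside tandem repeats. RELA at 6 h TNFα overlapped 7 (41.2%, exact 95% interval 18.4 to 67.1%), against 45.2% and 35.3%. FOSL1 overlapped 11 of the 17 (64.7%, 38.3 to 85.8%), against 58.0% and 48.8%. With a fold enrichment of at least 5 required in both lists, 4 of 11 (36.4%) overlapped, against 38.6% of all such regions and 31.0% of those outside tandem repeats. Vehicle H3K27ac lay within 500 bp of 14 summits (82.4%, 56.6 to 96.2%), against 60.1% and 63.2%. H3K27ac at 30 min TNFα lay within 500 bp of 15 (88.2%, 63.6 to 98.5%), against 71.2% and 74.3%. RELB at 6 h TWEAK overlapped 2 (11.8%, 1.46 to 36.4%), against 27.3% and 15.7%. An NF-κB match was present at 7 (41.2%) and an AP-1 match at 6 (35.3%, 14.2 to 61.7%), against the shares given above. The background outside tandem repeats was inside the interval of the members in each of these comparisons. The intervals cover counting error only and are wide at 17 regions, so they cannot show that the shares are alike. Regions are not replicates.

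**Figure D4:**
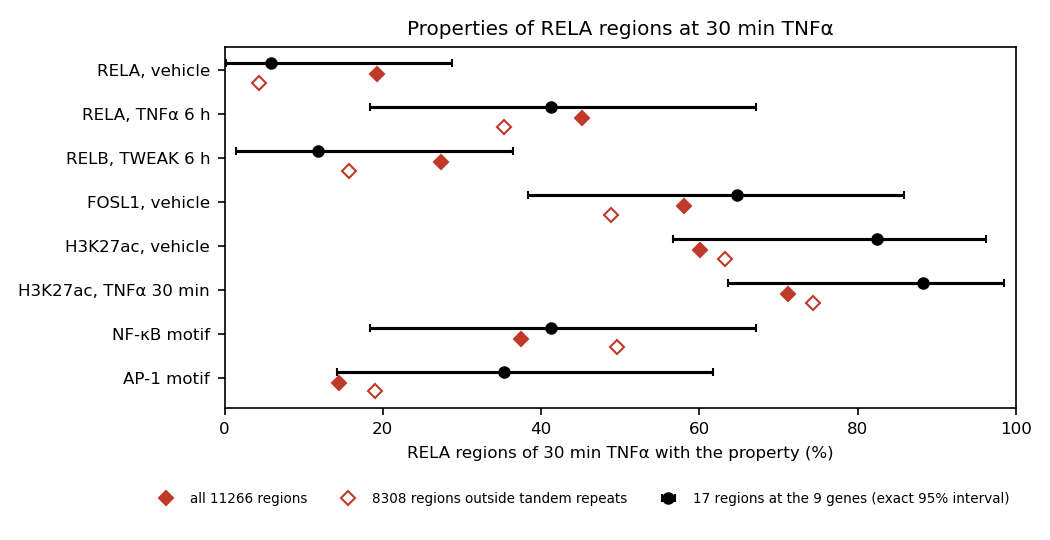
Percent of RELA regions at 30 min TNFα with each property on the left. Black circles with bars show the 17 regions at the 9 genes with exact 95% intervals, filled diamonds all 11266 regions and open diamonds the 8308 outside tandem repeats; FOSL1 overlap is 64.7% at the members and 48.8% outside repeats.

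FOSL1 was called in vehicle cells in all 9 windows, with 68 regions in all, and 90.6% of all protein-coding genes had a FOSL1 region in theirs. That is 53.2 regions per Mb, against 22.8 per Mb over the merged windows of all protein-coding genes, and RELA at 30 min TNFα gave 13.3 and 3.85 per Mb. FOSL1 overlapped a RELA or RELB site at 11 of its 68 regions (16.2%, against 14.9% of all FOSL1 regions), and 39 of the 68 (57.4%) had an AP-1 match, against 44.4%. The highest FOSL1 value was at EGFR, 16.0-fold at 114 kb into the gene in intron 1 (chr7:55132811-55133302), with no RELA or RELB region. TGFA had 12.3-fold 42.6 kb upstream of its start, and the EPGN to EREG interval had 12.0-fold 12.3 kb downstream of the EPGN start. At ERBB3 the leading FOSL1 region, 11.6-fold, was 103 bp upstream of the canonical start, and BTC had FOSL1 176 bp upstream of its start at 5.61-fold. AREG had 7 FOSL1 regions at 4.79 to 6.75-fold, and 2 of them had vehicle H3K27ac within 500 bp. At the other 8 genes the share ran from 4 of 6 (BTC) to 6 of 6 (EPGN). Over the 68 regions 56 (82.4%) had it, against 67.3% of all FOSL1 regions.

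H3K27ac covered 7.15% of the merged windows in vehicle (91.4 kb), against 2.49% of the merged windows of all protein-coding genes. All 9 genes had H3K27ac within 1 kb of the start site in all 5 lists, against 62.2% of all genes in vehicle, 60.4% and 62.0% in the TNFα lists (30 min, 6 h) and 61.0% and 61.8% in the TWEAK lists. At 7 genes a region covered the start base in every list, against 52.6% of all genes in vehicle, 48.4% and 51.0% in the TNFα lists and 49.7% and 48.1% in the TWEAK lists. At EGFR and HBEGF the start base lay beside a region. The covered length was lower than in vehicle in each cytokine list, at 0.886 of vehicle at 30 min TNFα, 0.961 at 6 h TNFα, 0.880 at 30 min TWEAK and 0.878 at 6 h TWEAK. Over the genome these ratios were 0.813, 1.00, 0.845 and 0.837. Of the H3K27ac regions at 30 min TNFα, 12 of 77 (15.6%) did not overlap a vehicle region, against 18.5% over the genome, and at 6 h TNFα 8 of 80 (10.0%), against 16.7%. After TWEAK these were 7 of 72 (9.72%, against 17.6%) for 30 min and 8 of 81 (9.88%, against 12.2%) for 6 h. Of the 80 vehicle regions, 15 (18.8%, against 27.8%) were missing at 30 min TNFα and 11 (13.8%, against 15.6%) at 6 h TNFα. In each TWEAK list 12 (15.0%) were missing, against 24.6% for 30 min and 20.2% for 6 h.

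AREG stood lowest of the 9 genes at 30 min TNFα. Its covered length was 5.37 kb in vehicle, 2.39 kb at 30 min TNFα, 4.71 kb at 6 h TNFα, 3.58 kb at 30 min TWEAK and 3.64 kb at 6 h TWEAK. At 30 min TNFα this was 0.445 of vehicle, and the other 8 genes had 0.753 (BTC) to 0.972 (HBEGF). The ratio over the genome was 0.813. The 7 vehicle regions in the AREG window had 2.14 to 2.89-fold, against a median of 3.05 over the vehicle list. At 30 min TNFα 4 of the 7 were missing, and these lay 26.6 to 37.1 kb upstream of AREG. The largest of them (chr4:74417941-74419156, 2.89-fold in vehicle) overlapped a FOSL1 region. All 4 also lay in the EREG window. The absence of 2 of them (chr4:74407914-74408234 and chr4:74408578-74408865) was not particular to 30 min TNFα, since both were also missing at 6 h TNFα and at both TWEAK times. A region of 6 h TNFα that was not in vehicle lay beside this pair (chr4:74408980-74409213). Over all vehicle H3K27ac regions, 27.8% did not overlap a region at 30 min TNFα. The region over the AREG start was kept: its fold enrichment was 2.72 in vehicle, 3.79 at 30 min and 2.93 at 6 h TNFα, and 3.81 and 3.19 at 30 min and 6 h TWEAK, while its length was 1.88 kb in vehicle and 1.29 to 1.39 kb after cytokine. The regions at 30 min TNFα that were not in vehicle were 3 of 13 at HBEGF, 3 of 14 at TGFA and 1 of 4 at AREG. At EGFR, with the longest window, they were 3 of 14, and the share over the genome was 18.5%. The vehicle regions missing at 30 min TNFα were 1 of 10 at HBEGF, 1 of 12 at TGFA, 4 of 7 at AREG and 5 of 16 at EGFR.

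**Figure D5:**
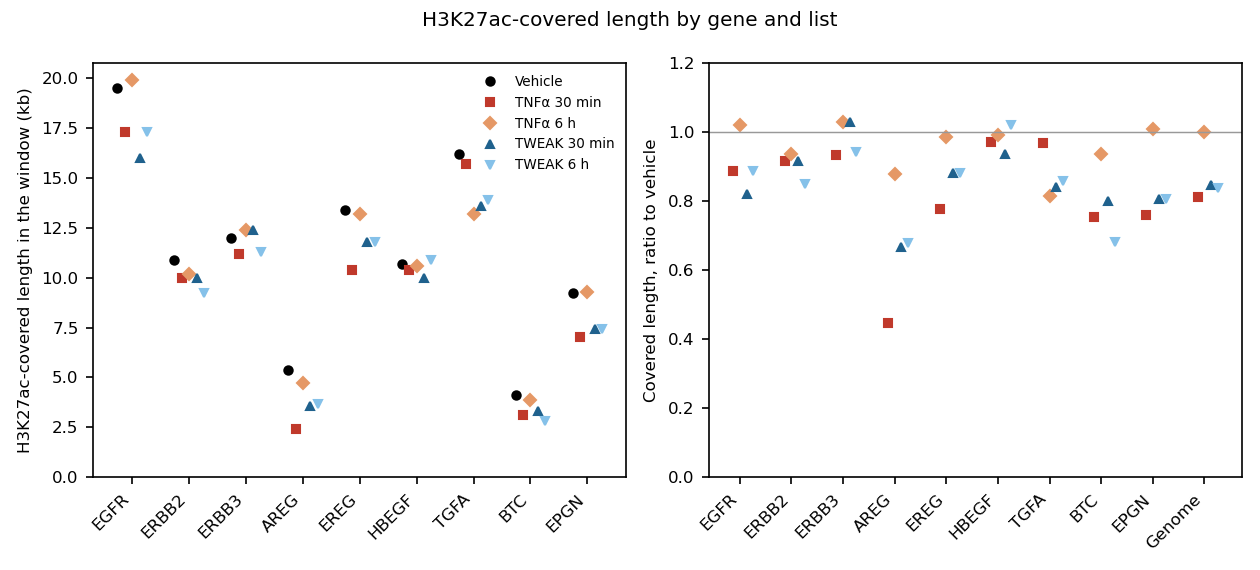
Left, length covered by H3K27ac regions in each gene's window (kb) in vehicle and after TNFα or TWEAK. Right, the same as a ratio to vehicle, with the ratio over the genome in the last column; 1 list per point, so no error can be shown, and AREG at 30 min TNFα is the lowest point at 0.445.

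Other genes of the pathway were counted from a list of 24. RELA at 30 min TNFα was called in the windows of 18 of them, against 48.1% of all genes: 4 of the 6 other ligand or receptor genes, 4 of 4 genes of ligand shedding, 4 of 5 adaptors and 6 of 9 feedback inhibitors. The highest fold enrichment was at EGF (15.0, +92.8 kb), the founding ligand of the family, and SPRY1 (14.5, −44.0 kb), an inhibitor of RAS signaling. ERRFI1 (13.8, −21.6 kb), an inhibitor of EGFR kinase activity, came next. Distances are from the start of the named gene, and the nearest protein-coding starts to these sites are not given here. ADAM17, the main protease that releases TGFA and HBEGF, had a RELA region at 10.9-fold, 3.06 kb into the gene. RELA was called at 8 of the 24 at 6 h TNFα (26.8% of all genes), at 2 at 30 min TWEAK (7.58%), at 1 in vehicle (5.05%) and at 0 at 6 h TWEAK (5.11%). RELB was called at 4 of the 24 at 6 h TWEAK (13.6% of all genes) and at 0 in the other 4 lists, where 1.39 to 3.87% of all genes had a region. The highest of these were NRG1 (8.51, −214 kb), which encodes a ligand of ERBB3, EGF (5.94, +92.8 kb) and LRIG1 (5.94, +20.1 kb). LRIG1 is a negative regulator of EGFR. FOSL1 was called at all 24, against 90.6% of all genes. Several of these windows are long, and the list was not matched for length.

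The pattern of HBEGF across the 10 NF-κB lists, taken as the best fold enrichment in each window, was closest to that of C3, GPR108 and TRIP10 among 20001 other protein-coding genes, with a mean absolute difference of 0.186 on the log2 scale over the 10 lists. The 3 genes are neighbors that shared the same sites, so they count as 1 locus. It had 12.9-fold in vehicle RELA, 22.3 and 23.6 at 30 min and 6 h TNFα, 16.5 and 10.3 at 30 min and 6 h TWEAK, and RELB at 5.99-fold at 6 h TWEAK alone. A list without a call was set to 0 on the log2 scale. Every RELB list but that of 6 h TWEAK thus added no difference and lowered the mean. The HBEGF pattern joined separate sites, with RELA from −1.9 kb and RELB from +23.7 kb.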

How the data were processed

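RELA, RELB, FOSL1 and H3K27ac ChIP-seq was done by the authors in 48 samples of L3.6pl cells, 3 per group. The authors used Bowtie2 2.5.0 and the hg38 assembly for mapping and called peaks with MACS2 (version not given in the sources used here) on merged samples against input, broad for H3K27ac, at a cutoff of 0.05. SAMtools 1.18 and deepTools 3.3.2 are named in the submitters' notes. The deposited fold is the authors' ratio of ChIP over input. The deposited −log10 q-value is the authors' significance, and the deposited summit offset is counted in bp from the peak start. The scores and the −log10 p-values were not used. Depth per sample is unknown.

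Peaks outside chromosomes 1 to 22, X and Y were dropped. The analysis ran on Python 3.11.15 (pandas 2.3.3, numpy 2.4.6, pysam 0.24.0 and scipy 1.17.1), with code tested on simulated data. Overlap needed 1 bp, and a site had H3K27ac if a region lay 500 bp or less from its summit. Tandem repeats were stretches of 1000 bp with a self-match of 0.4 or more at shifts of 1 to 400 bp. Genes came from GENCODE 44, with the Ensembl canonical start. Named sites were the best region of each gene in each list, those within 5 kb of a start and every RELB region of 6 h TWEAK, and the remaining sites were added for completeness. Pathway genes were named by the 3 highest fold values in 2 lists, and ADAM17 was added after its value was seen, as was the count of 24-bp copies in hg38. The sequence of 1 EGFR site is not reported here. The members and lists were chosen with earlier results of these data known. Alternatives were a stricter q, a fold minimum, other windows and overlaps, leaving out repeats and nearest genes alone.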

Additional observations from a re-analysis of the deposited data

How the results depend on the processing

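Each result was recomputed under the alternatives planned for it, 68 in all, and 6 were added after the data were seen. In these 74 recomputations 60 counts or shares stayed within 1.5 times the reported count, or within the interval of the reported share. For the H3K27ac coverage that interval, 7.10 to 7.19%, took each base as a separate trial. It is therefore too narrow, and even a small change of the coverage fell outside it. With a fold enrichment of at least 5, RELA at 30 min of TNFα had 11 regions in place of 17 and 10 not in vehicle in place of 16, its FOSL1 overlap was 36.4% (4 of 11) in place of 64.7%, and FOSL1 had 42 regions in place of 68. FOSL1 had 35 regions with 10 kb either side, 108 with 100 kb, and 43 where the nearest start site is a member's. Under that last condition 4 genes had a RELA region at 30 min of TNFα in place of 7 (EGFR, EREG, HBEGF and TGFA). Vehicle H3K27ac covered 6.39% of the windows at a −log10 q of at least 3, 8.87% with 10 kb either side and 6.93% with 100 kb. With the RELA list of 6 h TNFα in place of 30 min, the windows held 9 regions, 8 of them not in vehicle, at 3 genes. No paired analysis was possible because each list was called on merged replicates, and for the same reason no replicate could be left out.

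Limits: there is 1 list per group, so no difference between treatments was tested. Read depth is unknown, and a list records only what passed its threshold. The results cover peak calls in 1 cell line and hold no measure of transcription.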
